A study of Mus musculus with 2 samples.

Results

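The cells described here are macrophages of the brain's borders with little MHC class II RNA, 371 of 37387 cell barcodes in a single-cell RNA-seq study of the mouse brain. They were chosen from the counts themselves. A barcode needed at least 2000 unique molecular identifiers (UMIs, each a tag for 1 captured RNA molecule) and at most 10% mitochondrial UMIs, and then had to meet 5 conditions on shares of its UMIs. The border macrophage genes Mrc1, F13a1, Cd163 and Ms4a7 together had to hold at least 0.1%, and the microglial genes Tmem119, P2ry12, Siglech, Gpr34 and Sall1 under 0.2%. The endothelial genes Cldn5 and Flt1 had to stay under 0.1%, the monocyte genes Ly6c2 and Plac8 under 0.05%, and the MHC class II genes H2-Aa, H2-Ab1, H2-Eb1 and Cd74 under 0.5%. Barcodes that met all but the last condition are called MHC-II-high macrophages below. The library labelled KO held 204 MHC-II-low macrophages among 19159 barcodes, and the library labelled WT held 167 among 18228.

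The study compared aged mice that lack CD200R1, an inhibitory receptor of myeloid cells, with wild-type mice. The KO library came from CD200R1-/- mice and the WT library from wild-type mice, both of 18 months and the C57BL/6J strain. Neither received a treatment according to the labels, and although the study's title names Parkinson's disease, the labels give no disease model. Brains of perfused mice were dissociated with enzymes, and CD11b+ cells were taken with magnetic particles, a step that enriches myeloid cells to a degree that was not measured. The mutation is present in all cells of the KO animals, and the labels do not say how many mice each library pools. With 1 library per genotype there is no replicate, so no difference between KO and WT below has a test. The intervals given are exact 95% intervals that cover counting error only, and genotype cannot be told apart from anything else that differed between the libraries.

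Border macrophages, also called CNS-associated macrophages, live in the meninges, in the choroid plexus and along brain vessels, outside the tissue that microglia occupy. They take up material from the fluid around them through scavenger and mannose receptors. In many organs resident macrophages fall into a perivascular type that carries LYVE1, a receptor for hyaluronan, with little MHC class II, and a type rich in MHC class II, which presents antigen to CD4 T cells. CD200R1 receives the ligand CD200, found on neurons and endothelium, and restrains myeloid cells through adaptor proteins of the Dok family.

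The markers fixed for the cell type were found in the members, but Lyve1 itself only in part of them. To set cell classes side by side at 1 depth, each cell was thinned to 2000 UMIs. Mrc1, the mannose receptor, then had a UMI in 89.7% of KO and 90.4% of WT members, and F13a1, the coagulation factor XIII A chain, in 87.3% and 87.4%. Cd163, the haemoglobin scavenger receptor, was found in 58.8% of KO and 60.5% of WT members. These 3 genes were part of the rule. Of the genes that were not, Lyve1 had a UMI in 24.0% of thinned KO and 29.3% of thinned WT members, against 5.13% and 3.49% of MHC-II-high macrophages. Folr2, a folate receptor of resident macrophages, was found in 21.6% of KO and 27.5% of WT members, against 10.3% and 5.81% of MHC-II-high macrophages. Microglia and endothelial cells, which should lack Lyve1, showed it in 0.183% and 0.221% of cells in the KO library and in 0.210% and 0.147% in the WT library, all thinned to the same depth. Without thinning, Lyve1 was seen in 80 of 204 KO members (39.2%) and in 73 of 167 WT members (43.7%). All 5 markers occurred together in 31 KO (15.2%) and 52 WT members (31.1%) without thinning, where WT members were deeper. Thinned to 2000 UMIs, these were 15 KO (7.35%) and 18 WT members (10.8%). Without thinning, 5 KO and 2 WT members had none of the 5 and met the rule through Ms4a7, a membrane protein of border macrophages. Mrc1, F13a1 and Cd163 were fixed by the rule and do not check the label. Of the 2 markers outside it, Lyve1 and Folr2 had a UMI in a larger share of members than of MHC-II-high cells, while most members had no detected Lyve1 UMI.

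**Figure D1:**
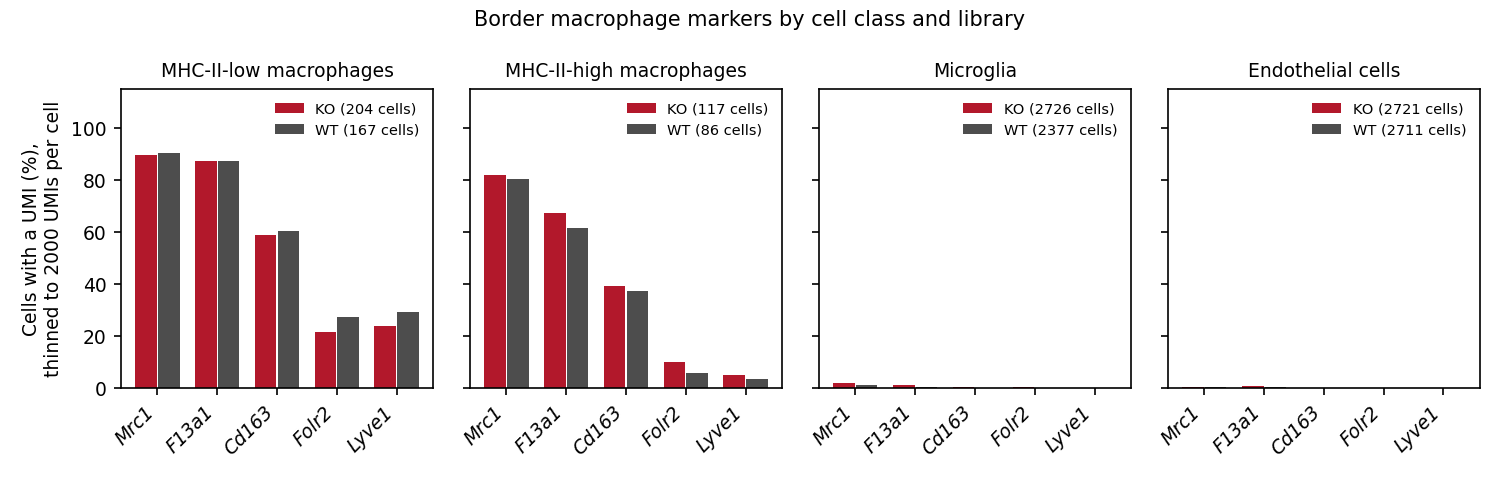
Share of cells with at least 1 UMI of each marker (vertical axis, percent, every cell thinned to 2000 UMIs) in MHC-II-low macrophages, MHC-II-high macrophages, microglia and endothelial cells, with KO bars in red and WT bars in grey. Lyve1 stood at 24.0% and 29.3% in the MHC-II-low cells of the KO and WT libraries and at or under 5.13% in every other class shown.

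The border of the class was not a gap for the microglial condition. Among KO barcodes that met the other conditions, 19 members lay at most 20% below the microglial limit and 21 barcodes at most 20% above it, and in WT these were 13 and 12. For MHC class II the edge was thin, with 7 KO members just inside and 3 barcodes just outside, and 4 and 2 in WT. The MHC class II share had a median of 0.0208% in KO and 0.00799% in WT members, against 2.52% and 2.48% in MHC-II-high macrophages. Members had a median of 5316 UMIs and 2196 genes in KO and of 6581 UMIs and 2549 genes in WT. Their UMIs summed to 1218451 in KO and 1217051 in WT, so that 1 UMI corresponds to 0.821 and 0.822 CPM (the count scaled to the same total in each library, over the summed UMIs of the members). Barcode sequences shared by the libraries numbered 103, and 0 of them were members in both; 3 barcodes of KO members also occurred in the WT library and 1 of a WT member in the KO library. A doublet caller marked 1 KO and 0 WT members, out of 2.60% and 0.603% of all barcodes.

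RNA of other cells was present at low levels and differed between the libraries. The list of 9 choroid plexus and ependymal markers summed to 7516 CPM in KO and 3194 CPM in WT members, with all 9 detected in both. Ttr, the choroid plexus transthyretin gene, made up 95.3% and 95.6% of that sum, and it was higher in KO microglia too, at 2966 against 2087 CPM in WT microglia. In 29 KO and 6 WT members the list held at least 1% of UMIs, and in 1 KO member it held 27.8%. Mural markers summed to 596 CPM in KO and 409 CPM in WT members, and fibroblast markers to 513 and 698 CPM. Neutrophil markers summed to 119 CPM in KO and 370 CPM in WT members, monocyte markers to 27.1 and 109 CPM, and T cell and NK markers to 18.1 and 0 CPM, with all 10 at 0 in WT. The median member held 0% of neutrophil and of monocyte markers in both libraries. For each of these 2 lists 1 WT member passed 1% of UMIs, at 1.70% for neutrophil and 1.13% for monocyte markers, and 0 KO members did. Microglial markers were close, at 4042 and 3862 CPM. The part of such RNA in the results was not tested beyond the values without mixed cells given beside them.

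MHC-II-low macrophages made up similar shares of both libraries. Among barcodes that passed the depth and mitochondrial limits they were 1.76% (1.53 to 2.02) in KO and 1.66% (1.42 to 1.92) in WT, and among all border macrophages 63.6% (58.0 to 68.8) in KO and 66.0% (59.8 to 71.8) in WT. The intervals overlap for both shares. Mixed cells are those with at least 1% of UMIs on another cell type's list, the microglial, monocyte and dendritic cell lists not counted. As an alternative chosen after seeing the data, they were left out of the members but kept among the filtered barcodes. The order of the first share then turned, to 1.45% in KO and 1.55% in WT. This alternative removed 36 KO and 11 WT members, and the choroid plexus and ependymal list passed 1% in 29 KO and 6 WT members.

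Cd200r1 itself (ENSMUSG00000022667, GRCm38 chromosome 16, 44765736 to 44794978, plus strand) was detected in both libraries. It had 44 UMIs in 37 KO members, or 36.1 CPM (26.2 to 48.5), and 75 UMIs in 52 WT members, or 61.6 CPM (48.5 to 77.2), a log2 ratio of -0.64. The deleted exons are not given, and reads of the transcript's end outside a deletion do not report on it, so these counts do not check the genotype labels.

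Set against MHC-II-high macrophages of the same libraries, the MHC-II-low cells had more RNA of 13 of 29 border macrophage list genes, of 5 of 20 scavenger receptor genes and of 5 of 16 growth factor genes. These lists overlap: all 5 scavenger receptor genes are also among the 13, and so is Igf1 of the growth factor genes. The 2 classes were cut by MHC class II genes, so these differences describe the classes and are not tested. They also differed in the macrophage genes of the rule. Mrc1, F13a1, Cd163 and Ms4a7 together held a median of 0.56% of UMIs in KO and 0.57% in WT members. In MHC-II-high cells the medians were 0.27% and 0.31%. The part of this difference in the values below was not tested. Of 5016 genes with enough UMIs, 48 (0.957%) passed 2-fold upwards in both libraries and 27 (0.538%) downwards. Of the 29 measured genes of the border identity list, 13 were among the higher ones and 0 among the lower ones, with a median log2 difference of 1.05 in KO and 1.24 in WT, against 0.066 and 0.038 over all genes. Much of this list is textbook marker genes of the Lyve1 type, so its direction adds no independent evidence.

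Among the genes higher in MHC-II-low cells were the Cd209 lectins, which bind sugars on microbes and glycoproteins. Cd209b had 204 CPM in MHC-II-low and 22.8 CPM in MHC-II-high cells of the KO library, and 243 and 23.8 CPM in those of the WT library. For Cd209f the values were 398 and 45.5 CPM in KO and 403 and 84.9 CPM in WT. Cd209g, Cd209a and Cd209d were higher by the same criterion, and since these genes are near copies of each other, their counts may be split among them. Colec12, a scavenger receptor of the collectin family, had 282 CPM in MHC-II-low and 52.1 CPM in MHC-II-high cells of the KO library, against 328 and 49.1 CPM in WT. Stab1, the stabilin-1 clearance receptor, had 1210 and 537 CPM in KO and 1367 and 478 CPM in WT. The eosinophil attractant Ccl24 had 323 and 86.2 CPM in KO and 450.3 and 52.1 CPM in WT.

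Growth factor genes went the same way. Bmp2, a bone morphogenetic protein, had 144 CPM in MHC-II-low and 37.4 CPM in MHC-II-high cells of the KO library, against 104 and 16.4 CPM in WT. Igf1 (log2 difference 1.09 in KO and 1.24 in WT), the platelet-derived factor Pdgfc (1.36 and 1.12), Ccn1 (1.197 and 2.76) and the receptor gene Egfr (1.78 and 1.04) passed 2-fold as well, 5 of the 16 measured genes of the growth factor list. Egfl7 (1.74 and 2.10) and the endothelin receptor gene Ednrb (1.54 and 2.55), both better known from vessels, were also on the MHC-II-low side. Acta2 and Tagln, contractile genes of smooth muscle, were higher in MHC-II-low cells too, with log2 differences of 1.90 and 2.28 in KO and 1.67 and 1.37 in WT, and the part of mural RNA in these values was not tested.

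On the other side stood 3 of the 9 measured MHC class II genes outside the rule and chemokine receptors such as Ccr2. The background is the 0.538% of all genes that were lower by the same criterion. None of the 9 was higher, and their median log2 difference was -0.43 in KO and -0.56 in WT. Of 17 MHC class I presentation genes 0 passed 2-fold either way, a count that the background shares alone would give. Ciita, the master regulator of MHC class II genes, had 2.46 CPM in MHC-II-low and 79.7 CPM in MHC-II-high cells of the KO library and 0.822 and 76.0 CPM in those of the WT library. H2-DMa and H2-DMb1, which load peptides onto MHC class II, had log2 differences of -1.73 and -2.13 in KO and -1.66 and -1.80 in WT. Ccr2, the receptor that brings monocytes into tissues, had 0 UMIs in KO members and 8 UMIs in WT members, against 50 UMIs in KO and 72 UMIs in WT MHC-II-high cells. The B cell attractant Cxcl13 (-2.70 in KO and -2.76 in WT), the adhesion gene Alcam, the receptor gene Slamf7, Klra2, Ms4a4c, Lsp1 and Cd72 were lower in MHC-II-low cells of both libraries. Of the interferon response genes, 0 of 28 passed 2-fold in both libraries between the classes, a count that the background shares alone would give, with medians of -0.13 in KO and -0.33 in WT.

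**Figure D2:**
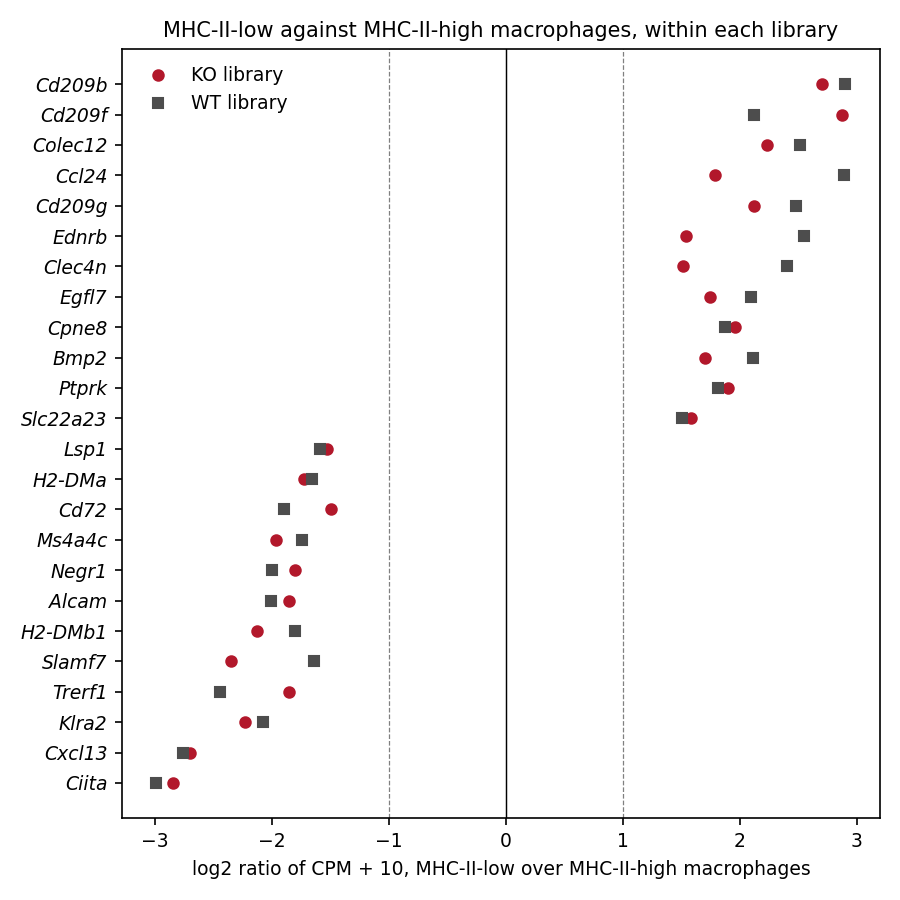
Log2 ratio of CPM + 10 in MHC-II-low over MHC-II-high macrophages (horizontal axis) for the 12 highest and the 12 lowest genes, with 1 point for the KO library (red circles) and 1 for the WT library (grey squares); dashed lines mark 2-fold. Cd209b lay at 2.70 and 2.90 and Ciita at -2.85 and -2.99 in the KO and WT libraries.

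Members in which Lyve1 was detected differed from the others in further genes. They numbered 80 in KO and 73 in WT, and their median depth was 5650 UMIs in KO and 6703 in WT, against 5202 and 6510 UMIs in members without a Lyve1 UMI. At least 2-fold differences in both libraries were seen for 12 of 3673 genes (0.327%) on the Lyve1-detected side, Lyve1 included by construction, and for 14 genes (0.381%) on the other side. Folr2 had 349 CPM in Lyve1-detected and 74.6 CPM in undetected members of the KO library, against 411 and 88.1 CPM in WT. Fcna, the ficolin A gene of the lectin complement pathway, had 154 and 32.4 CPM in KO and 130 and 25.4 CPM in WT. The monocyte attractants Ccl7 (1123 and 360.1 CPM in KO, 1427 and 246 CPM in WT) and Ccl2 (912 and 363 CPM in KO, 1616 and 427 CPM in WT) were on the same side, as were Cd209b, Cd209f, Cd209g, Ccn1, Ccl24, Ccr1 and Hgsnat, a lysosomal acetyltransferase gene. In WT, 1 Lyve1-detected member held 415 of the 885 Ccl2 UMIs of that set, and the difference without it was not tested.

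Thinned to 2000 UMIs, Folr2 was found in 22 of the 49 KO members with a Lyve1 UMI and in 22 of the other 155, and in 22 of 49 and 24 of 118 in WT. Cd209f was found in 49.0% of Lyve1-positive and 26.5% of other KO members, against 57.1% and 27.1% in WT. At this depth a cell without a UMI may still express the gene. Members without a Lyve1 UMI had more of other genes. Rgs1, a regulator of G protein signalling, had 86.7 CPM in Lyve1-detected and 329 CPM in undetected members of the KO library, against 73.1 and 379 CPM in WT. Lgals3, galectin-3, had 101 and 255 CPM in KO and 38.4 and 299 CPM in WT, and the fatty acid-binding protein gene Fabp5 (39.4 and 155 CPM in KO, 53.0 and 157 CPM in WT) was on the same side. Further genes on their side belong to contractile cells or fibroblasts, namely Myl9, Tpm2, Cald1, Prkg1, Tagln, Acta2 and Apod, and the part of mural and fibroblast RNA was not tested. Of the interferon list, 0 of 18 measured genes passed 2-fold in both libraries, a count that the background shares alone would give, and the medians were -0.046 in KO and 0.24 in WT.

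Between the genotypes, the MHC-II-low macrophages of the KO library had more RNA of type I interferon response genes. Of the border macrophage list 1 of 29 genes passed 1.5-fold, a count that the shares of all genes called would also give. Single chemokine, growth factor and glucocorticoid-induced genes were lower in KO. Of 6316 genes with at least 50 UMIs, 190 (3.01%) were higher in KO by 1.5-fold or more on the scale of CPM + 10, and 152 (2.41%) were lower by as much. The median log2 ratio over all of them was -0.0016. These counts move with the setting, as given in the closing section, and the shares called are the background for the lists below.

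Type I interferon acts on a cell surface receptor whose signal switches on a set of antiviral genes in nearly every cell type. Of the 31 measured genes of the interferon list, 28 were at least 1.5-fold higher in KO members and 0 lower, and their log2 ratios ran between 0.43 and 1.96, around a median of 0.96. The background is the 3.01% of all genes that were higher by the same criterion. The list was already known to be higher in KO in many cell classes of these libraries, so its direction here is not independent evidence. The median was 0.57 in MHC-II-high macrophages and 1.24 in microglia of the same libraries. Over 15 alternative settings the median in MHC-II-low macrophages stayed between 0.68 and 1.11.

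Isg15, the ubiquitin-like modifier, had 170 UMIs in 75 KO members, or 140 CPM (119 to 162), and 51 UMIs in 30 WT members, or 41.9 CPM (31.2 to 55.1), a log2 ratio of 1.53. Usp18, which removes ISG15 and damps the receptor, had 76.3 CPM in KO and 37.8 CPM in WT. Ifit2, which binds foreign RNA, had 125 UMIs in 44 KO members, or 103 CPM, and 23 UMIs in 14 WT members, or 18.9 CPM, with 29 of the KO UMIs in 1 cell and a log2 ratio of 1.96, or 1.84 without the top cell of each library. Its neighbours Ifit1 (54.2 and 16.4 CPM), Ifit3 (137 and 69.8 CPM) and Ifit3b (45.1 and 12.3 CPM) were also higher in KO than in WT, the last pair being near copies whose reads may be shared. Rsad2, the antiviral enzyme viperin, rested on few cells, with 60 UMIs in KO and 10 in WT, and 31 of the KO UMIs lay in 1 member.

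Ifi27l2a, a small interferon-induced protein gene, was detected in most members. It had 1663 CPM (1591 to 1737) in KO and 613 CPM (570 to 659) in WT, with a UMI in 193 of 204 KO and 129 of 167 WT members. Membrane proteins that hold back viruses followed, Ifitm3 with 1342 CPM in KO and 818 CPM in WT and Bst2, tetherin, with 1155 and 630.2 CPM. Signalling genes and sensors of the pathway were higher as well. Stat2, a signal transducer, had 79.6 CPM in KO and 24.7 CPM in WT, and Irf7, the transcription factor that amplifies the response, had 78.0 and 26.3 CPM. The RNA sensor genes Ddx58 (70.6 and 33.7 CPM) and Ifih1 (64.0 and 26.3 CPM) and the nucleic acid sensor Zbp1 (60.7 and 29.6 CPM) went the same way. Oasl2 (log2 ratio 1.45), Rtp4 (1.203), Slfn5 (1.11), Ifi213 (1.04) and Lgals3bp (0.98) were higher too, and Phf11b (0.55), Ifi204 (0.50) and Slfn2 (0.43) were the 3 that did not reach 1.5-fold. Outside the list, Ifi206 (97.7 CPM in KO, 28.8 CPM in WT), of the same family of near-copy genes as Ifi204, was among the 12 highest genes of the whole table. Iigp1, an immunity-related GTPase, also was, at 199 and 75.6 CPM, but 103 of its 243 KO UMIs lay in 1 member.

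Per cell, the summed share of the list was above the WT median in most KO members. Genes with many UMIs weigh most in such a sum. Ifi27l2a alone had 1663 of the list's 7734 CPM in KO and 613 of 3820 CPM in WT members, so the sum does not show how single genes were spread. The interferon list held a median of 0.643% of the UMIs of a KO member, with a range of 0.122% to 2.81%, and 0.294% of those of a WT member, with a range of 0.0463% to 1.59%. The ranges overlap, and 91.7% of KO members lay above the WT median. In MHC-II-high macrophages the medians were 0.7996% in KO and 0.324% in WT, and in microglia 0.284% and 0.0732%. Cells of 1 library are not replicates of a genotype, so these shares describe the 2 libraries.

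**Figure D3:**
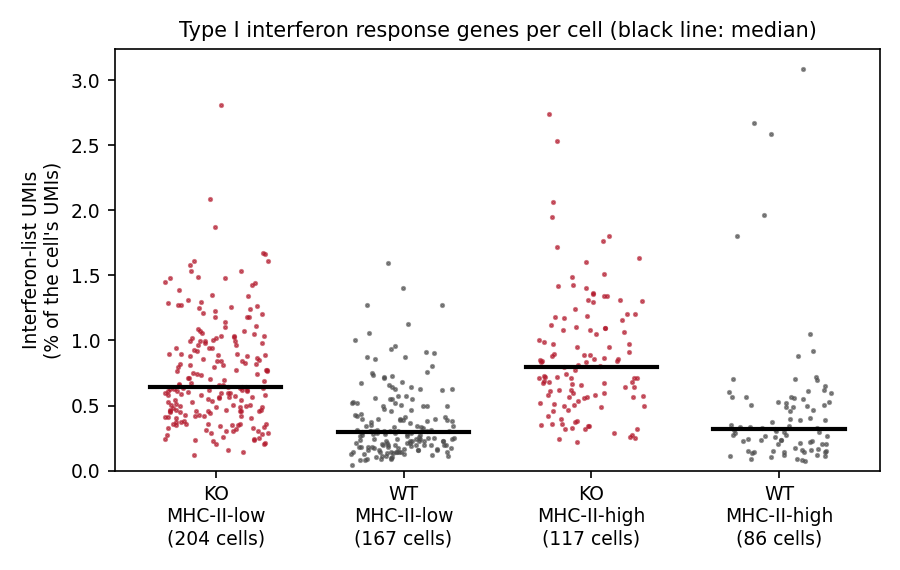
Percent of a cell's UMIs that fall on the interferon list (vertical axis), 1 point per cell, in MHC-II-low and MHC-II-high macrophages of the KO (red) and WT (grey) libraries; black lines are medians. The medians of the MHC-II-low cells were 0.643% in KO and 0.294% in WT, and both clouds spread over most of the range below 1.59%.

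**Figure D4:**
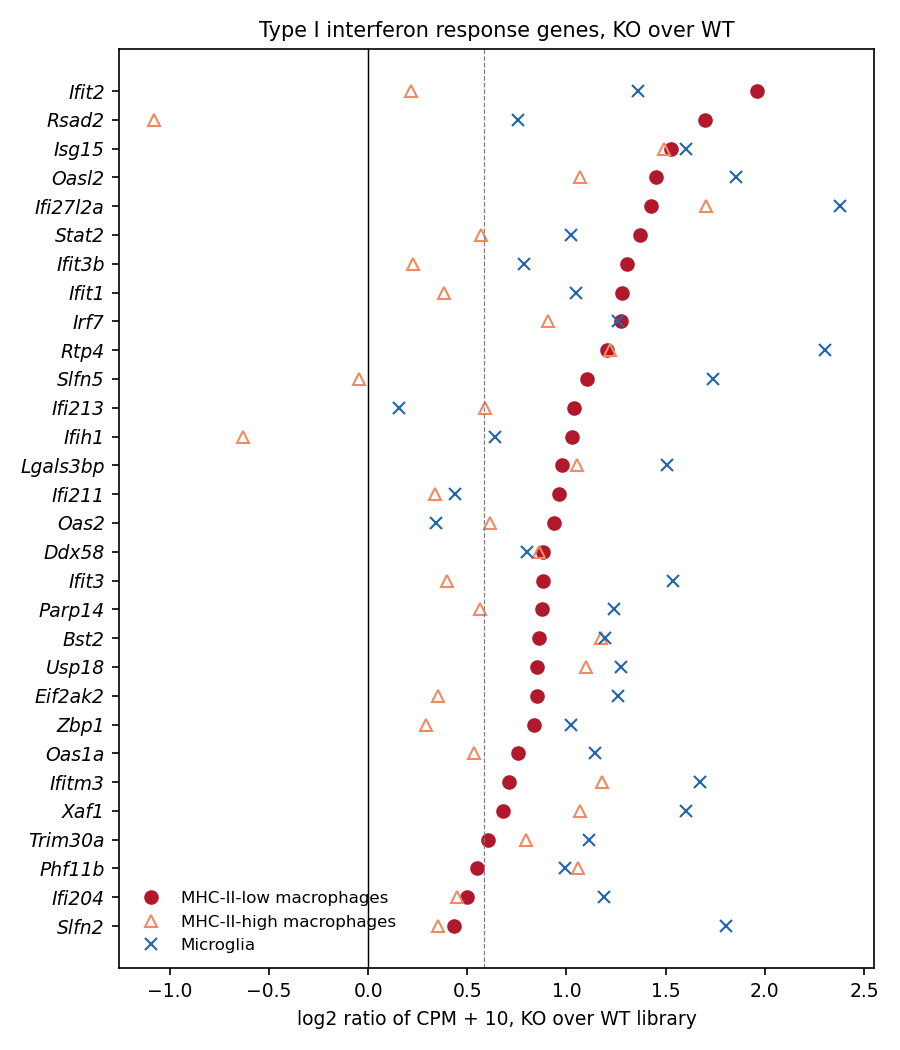
Log2 ratio of CPM + 10 in KO over WT (horizontal axis) for 30 of the 31 measured genes of the interferon list in MHC-II-low macrophages (red circles), MHC-II-high macrophages (open triangles) and microglia (crosses); the dashed line marks 1.5-fold. All 30 circles lie above 0, between 0.43 and 1.96, and the microglial crosses reach 2.38 for Ifi27l2a.

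The promoters of these genes are shown because the genes moved together. Promoters of interferon-stimulated genes often carry a repeat of GAAA, and the letters GAAA, any 2 bases and GAAA again were searched on both strands from 250 bases before to 50 bases after each gene's start, in RefSeq sequence of GRCm38.p6. Of the list's measured genes, 23 had a promoter in that table, and 17 of them (73.9%) held the letters, against 1079 of 27025 genes (3.99%) of the whole table. Isg15 held 3 overlapping matches, Ifit1 held 2, and Stat2 held 1. Ifit2, Irf7, Oasl2, Xaf1, Slfn2 and Lgals3bp had no match in this window. A match describes the letters only. The 3 promoters below run 5′ to 3′ along the gene's strand, with the matches in capitals (TTTC, 2 bases and TTTC where the motif lies on the other strand), at chr4:156200769-156201068 on the minus strand for Isg15, chr19:34640639-34640938 on the plus strand for Ifit1 and chr10:128270248-128270547 on the plus strand for Stat2.
Isg15: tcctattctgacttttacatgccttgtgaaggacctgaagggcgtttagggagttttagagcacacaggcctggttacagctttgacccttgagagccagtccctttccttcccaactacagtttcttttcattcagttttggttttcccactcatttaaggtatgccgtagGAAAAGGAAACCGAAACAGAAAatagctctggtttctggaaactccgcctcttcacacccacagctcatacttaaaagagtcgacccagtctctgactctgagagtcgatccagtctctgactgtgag
Ifit1: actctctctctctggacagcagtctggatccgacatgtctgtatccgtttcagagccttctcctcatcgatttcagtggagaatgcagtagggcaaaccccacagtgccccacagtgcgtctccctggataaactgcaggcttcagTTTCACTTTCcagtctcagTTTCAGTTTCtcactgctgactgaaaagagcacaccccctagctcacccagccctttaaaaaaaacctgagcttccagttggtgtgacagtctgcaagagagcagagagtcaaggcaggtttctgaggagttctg
Stat2: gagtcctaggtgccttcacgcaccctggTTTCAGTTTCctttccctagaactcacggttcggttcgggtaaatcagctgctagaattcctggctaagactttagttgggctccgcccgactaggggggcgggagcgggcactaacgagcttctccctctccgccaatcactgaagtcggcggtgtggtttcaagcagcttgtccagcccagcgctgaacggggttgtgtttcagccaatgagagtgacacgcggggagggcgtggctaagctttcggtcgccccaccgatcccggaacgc
The match nearest to the start begins 66 bases before it in Isg15 and 85 bases before it in Ifit1, and that of Stat2 begins 222 bases before it.

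Other high genes in KO lay largely in single cells, or are genes that choroid plexus and meninges also express. Apoc4, an apolipoprotein gene, had the largest ratio of the 12 highest genes, with 81.3 CPM in KO and 7.39 CPM in WT, but 83 of its 99 KO UMIs lay in 1 member, and its log2 ratio of 2.39 became 0.71 without the top cell and -0.65 with the macrophage share raised to at least 0.2%. Ptgds, the prostaglandin D synthase of the meninges and choroid plexus, had 571 CPM in KO and 156 CPM in WT, a log2 ratio of 1.81 that was 1.35 without the mixed cells, 0.75 in cells with at least 4000 UMIs and 0.70 in Lyve1-detected members. It was found in 30.4% of thinned KO and 18.6% of thinned WT members, and in 20.8% of KO and 13.7% of WT endothelial cells. Ecrg4, a secreted factor of choroid plexus epithelium, had 103 UMIs in 59 KO members and 28 UMIs in 23 WT members, with a log2 ratio of 1.52, or 0.91 without the mixed cells. Ttr had 7162 CPM in KO and 3053 CPM in WT members, and its part in these 2 values was not tested.

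**Figure D5:**
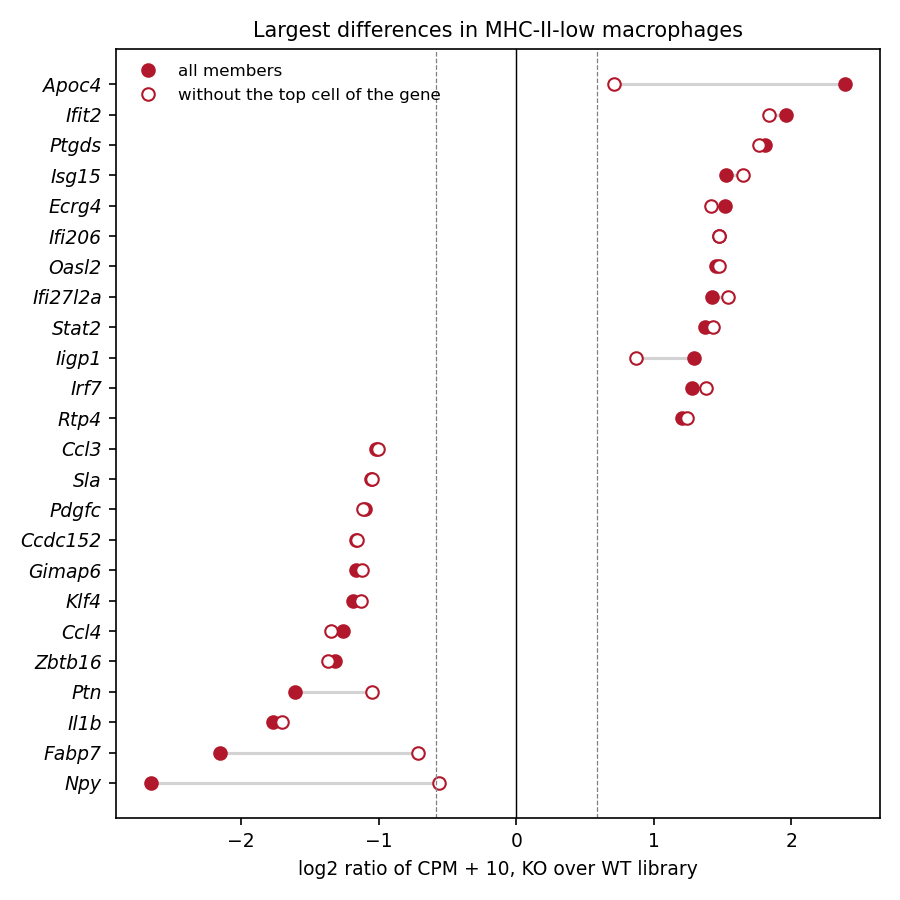
Log2 ratio of CPM + 10 in KO over WT members (horizontal axis) for the 12 highest and the 12 lowest genes, with all members (filled circles) and without the cell with the most UMIs of the gene in each library (open circles); dashed lines mark 1.5-fold. Apoc4, Iigp1, Ptn, Fabp7 and Npy moved most, Npy to -0.56 and Apoc4 to 0.71, while Isg15 went to 1.65, Zbtb16 to -1.37 and Ccl4 to -1.35.

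Chemokine genes went in both directions. Of 16 measured, 5 were higher and 3 lower in KO, with a median of 0.13. Ccl8, a CC chemokine typical of border macrophages, had 1325 CPM (1261 to 1391) in KO and 670.5 CPM (625 to 718) in WT, and it was the 1 border identity gene past 1.5-fold. Ccl4 and Ccl3, inflammatory CC chemokines, were lower in KO, Ccl4 with 490.0 CPM in KO and 1186 CPM in WT and Ccl3 with 611 and 1249 CPM. Their log2 ratios of -1.26 and -1.02 hardly moved without the top cell, at -1.35 and -1.01, and Ccl4 was also lower in MHC-II-high macrophages (-1.53) and microglia (-0.63). Ccl2 had 592 CPM in KO and 962 CPM in WT, but 1 WT member held 415 of 1171 UMIs, and without the top cells the log2 ratio was -0.23 in place of -0.69. Further high values came from a handful of cells. Cxcl9, an attractant of T cells, had 84 UMIs in 2 KO members and 0 UMIs in WT members, where the exact interval for 0 UMIs reaches 3.03 CPM. Cxcl1 had 84 UMIs in 10 KO members and 10 UMIs in 7 WT members, and Cxcl10 had 63 UMIs in 11 KO members and 26 UMIs in 9 WT members. The neutrophil attractant Cxcl2 had 288 CPM in 25 KO members and 178 CPM in 10 WT members.

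Of 15 measured inflammatory cytokine genes, 2 were higher in KO and 1 lower, beside 3.01% higher and 2.41% lower among all genes. Il1b, the interleukin-1 beta gene, had 31 UMIs in 9 KO members, or 25.4 CPM, and 135 UMIs in 14 WT members, or 111 CPM, with a ratio of 0.229 (0.150 to 0.341). Few members carried it in either library, and its log2 ratio of -1.77 was -1.585 without the mixed cells. Neutrophil markers were lower in KO members as well, at 119 CPM against 370 CPM in WT, where 1 member held 1.70%. Their part was not tested beyond the value without mixed cells. Osm, oncostatin M, had 57.4 CPM in KO and 30.4 CPM in WT, and Tnfaip3, a brake on NF-kB, had 184 and 118 CPM.

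Most genes of the border macrophage list were within 1.5-fold between the genotypes. Of 29 genes, 1 was higher, 0 were lower, and the median was -0.14, near the all-gene median of -0.0016. These counts are near the 3.01% higher and 2.41% lower among all genes, so they are not particular to the list. The lowest were Wfdc17 with 1208 CPM in KO and 1790 CPM in WT (log2 ratio -0.56) and Lyve1 with 254 CPM (227 to 284) in KO and 366 CPM (333 to 401) in WT (-0.51), both short of 1.5-fold. Folr2 had 189 CPM in KO and 233 CPM in WT. The share of members with a Lyve1 UMI had overlapping intervals, 39.2% (32.5 to 46.3) in KO and 43.7% (36.1 to 51.6) in WT. Folr2 was seen in 35.8% (29.2 to 42.8) of KO and 54.5% (46.6 to 62.2) of WT members, intervals that do not overlap, at median depths of 5316 UMIs in KO and 6581 UMIs in WT. At 2000 UMIs per cell these shares were 21.6% in KO and 27.5% in WT. Pf4, the platelet factor 4 gene that border macrophages also make, had 1703 CPM in KO and 1575 CPM in WT. None of the 21 scavenger and endocytic receptor genes passed 1.5-fold, with Msr1 at 241 CPM in KO and 187 CPM in WT and Cd36 at 233 CPM in KO and 288 CPM in WT, the sign for Cd36 changing under alternatives. The 14 genes of iron and haem handling gave 0 either way, although Hmox1, the haem oxygenase induced by haem, came close with 131 CPM in KO and 199 CPM in WT. For both the scavenger and the iron list, the shares of all genes called could also give a count of 0.

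Among genes that glucocorticoids induce, a few were lower in KO. Of 15 measured, 3 were lower and 1 higher, and the median was -0.27. Zbtb16, a zinc finger repressor (ENSMUSG00000066687, GRCm38 chromosome 9, 48654297 to 48836222, minus strand), had 66.5 CPM (52.8 to 82.6) in 47 KO members and 181 CPM (158 to 206) in 97 WT members. Its log2 ratio of -1.32 lay between -1.69 and -0.99 over the 15 alternatives, and it was -1.23 in MHC-II-high macrophages and -1.49 in microglia. Fkbp5, a co-chaperone of the glucocorticoid receptor, had 438 CPM in KO and 762 CPM in WT (log2 ratio -0.78, and -0.76 in MHC-II-high macrophages). Ddit4, an inhibitor of mTOR, had 67.3 CPM in KO and 119 CPM in WT. Cebpb went the other way, with 609 CPM in KO and 384 CPM in WT, and Tsc22d3, the classic target GILZ, stood at 519 and 544 CPM. By share of a cell's UMIs the list had a median of 0.404% in KO and 0.482% in WT members, and 39.2% of KO members lay above the WT median.

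Most immediate-early and heat shock genes, which also respond to tissue dissociation, were within 1.5-fold of WT. Of 24 measured, 4 were lower in KO and 0 higher, a larger share lower than the 2.41% of all genes. Klf4, a zinc finger factor, had 153 CPM in KO and 361 CPM in WT. Hspa1a (141 and 294 CPM) and Hspa1b (116 and 219 CPM), near copies that encode HSP70, and Egr2 (17.2 and 37.0 CPM) were the others. Fos stood at 2232 CPM in KO and 2112 CPM in WT and Jun at 2438 and 2616 CPM. Among 24 transcription factors of macrophages, Stat3 (186 and 120 CPM) and Stat6 (63.2 and 38.6 CPM) were higher, Klf4 and Bhlhe41 (59.9 and 104 CPM) lower, and the lineage factor Maf stood at 1799 CPM in KO and 2276 CPM in WT.

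Among growth factors, 3 of 17 genes were lower in KO and 0 higher. Pdgfc had 124 CPM (105 to 145) in 66 KO members and 277 CPM (248 to 308) in 90 WT members, with a log2 ratio of -1.10 here, -1.34 in MHC-II-high macrophages and 0.087 in microglia. Egfr had 68.9 CPM in KO and 127 CPM in WT, and Sema6d, a semaphorin, 46.8 and 77.2 CPM. Other factors were nearer to WT, as Igf1 stood at 254 CPM in KO and 280 CPM in WT and Bmp2 at 144 CPM in KO and 104 CPM in WT, with a sign that changed under alternatives. Matrix genes were split, with 2 of 18 higher and 3 lower. Vcam1, an adhesion molecule for lymphocytes, had 938 CPM in KO and 1436 CPM in WT in 165 and 134 members. The other 4 rested on few cells. For Timp3 1 KO member held 93 of 161 UMIs, for Spp1 70 of 252, for Fn1 1 WT member held 36 of 52, and for Adamts1 31 of 65.

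Some low genes are better known from other cells. Npy had 12 UMIs in KO and 140 in WT, and Fabp7, a fatty acid-binding protein of glia, 16 and 113, but 1 WT member held 121 and 84 of them, and without the top cells the log2 ratios of -2.66 and -2.15 became -0.56 and -0.71. Ptn, pleiotrophin, had 78.8 CPM in KO and 260.5 CPM in WT, with 126 of 317 WT UMIs in 1 member, and it was found in 79.6% of KO and 82.9% of WT endothelial cells. Gimap6, a GTPase gene of immune cells, had 29.6 CPM in KO and 78.9 CPM in WT, and Sla, an adaptor that damps receptor signalling, 41.0 and 96.1 CPM, each spread over 25 to 70 members. Thinned, Gimap6 had a UMI in 33% of KO and 28.55% of WT endothelial cells, against 3.43% and 9.58% of members. Endothelial markers summed to 780.5 CPM in KO and 960.5 CPM in WT members, and their part in the Gimap6 values was not tested. Ccdc152 had 23.8 CPM in KO and 65.7 CPM in WT, and its annotated end overlaps the gene Selenop on the opposite strand, so its counts are uncertain.

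In antigen presentation by MHC class I, 2 of 18 genes were higher in KO and 0 lower, with a median log2 ratio of 0.22, beside 0.30 in MHC-II-high macrophages and 0.27 in microglia. Nlrc5, the transactivator of class I genes, had 58.3 CPM in KO and 27.1 CPM in WT, and Psme2, a proteasome activator subunit, 124 and 69.0 CPM. H2-T23 just missed 1.5-fold at 307 and 204 CPM, and the log2 ratio was 0.48 for B2m and 0.11 for H2-D1. None of the 8 measured MHC class II pathway genes outside the rule passed, a count that the shares of all genes called could also give. Cd83, of that list, had 790.3 CPM in KO and 542 CPM in WT.

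Receptors of the immune environment gave single differences. Fcgr1, the high-affinity IgG receptor and itself interferon-inducible, had 286 CPM in KO and 168 CPM in WT, and the other 5 Fc receptor genes were within 1.5-fold. Cx3cr1, the fractalkine receptor, had 514 CPM (474 to 556) in KO and 303 CPM (273 to 336) in WT, and Ccr1 had 185 and 112 CPM, the 2 higher genes among 22 growth factor and survival receptors. Csf1 was the lower one, with 15 UMIs in KO and 44 in WT, of which 1 cell held 24, and its receptor Csf1r had a log2 ratio of -0.11. In the complement list Cd55, which breaks down convertases, was higher (63.2 and 37.0 CPM) and C5ar2 lower (28 and 50 UMIs) among 14 genes, and C1qa stood at 6283 CPM in KO and 5720 CPM in WT. Among 15 inhibitory receptor genes 0 passed in either direction, a count that the shares of all genes called could also give. Siglec1, the sialoadhesin, had the highest ratio of them, at 112 CPM in KO and 75.6 CPM in WT. Of 11 genes of CD200 receptor signalling, Cd200r1 was lower and none higher, and Dok1, an adaptor that the receptor recruits, had 27.9 CPM in KO and 25.5 CPM in WT.

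Lysosomal and lipid genes were mostly within 1.5-fold, as were most genes tested, of which 3.01% were higher and 2.41% lower. Npl, a lyase that degrades sialic acid, was the 1 of 29 lysosomal genes past 1.5-fold, with 197 CPM (173 to 224) in 119 KO members and 105 CPM (87.7 to 125) in 81 WT members, and its log2 ratio was 0.85 here, 1.09 in MHC-II-high macrophages and 1.42 in microglia. Of 20 lipid and cholesterol genes, Apoc4 and Ptgds were higher and 0 lower, and Apoe had 42244 CPM in KO and 43204 CPM in WT. Of 20 cell cycle genes, 6 had enough UMIs, and 1 of them, Stmn1, was lower, with 31 UMIs in KO and 53 in WT.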

How the data were processed

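Both files hold UMI counts per gene and barcode that the authors deposited; the counts came from Cell Ranger 7.0.1 per the file headers, and the submitters' processing notes also name STAR, Seurat 3.1.1 and the GRCm38 (mm10) build, without a role. The annotation release is not given in the sources used here. The depositors' tables start at 500 UMIs per barcode, and total UMIs were 131196245 in KO and 127429919 in WT, over 32285 genes. The 2000-UMI and 10% mitochondrial limits left 11573 KO and 10091 WT barcodes.

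Members, lists and comparisons were chosen with earlier results of these data known. Counts were summed over members per library and scaled to CPM, so a value averages its cells by depth; the ratio is log2((CPM KO + 10)/(CPM WT + 10)), which understates changes of low genes. Genes needed 50 UMIs over both libraries and were called at 1.5-fold, or at 2-fold in both libraries between cell classes. With 1 library per genotype no test was run. Levels have exact Poisson intervals, shares Clopper-Pearson intervals and ratios exact conditional intervals, all 95% and for counting error only. Tags lie near the transcript's end, so levels of different genes are not compared. Named genes are the 12 highest and 12 lowest with at least 100 UMIs, without mitochondrial, ribosomal, haemoglobin, sex-linked, receptor-segment, predicted and other-cell marker genes. The 3 highest and 3 lowest of each of 21 lists, the markers and rule genes, and the leading genes of both class comparisons are named too. Further genes printed were chosen after their values were seen, and a few genes are not reported here. Microglia and endothelial cells were cut at 0.5% or more of their own rule genes and under 0.05% of the macrophage genes. Positions are from GENCODE on GRCm38. Doublets were marked with Scrublet in scanpy 1.11.5 and kept. Scripts were tested on simulated data and run with Python 3.11.15, numpy 2.4.6, pandas 2.3.3 and scipy 1.17.1. Alternatives covered pseudocounts, filters, scaling, thinning, limits of the rule, doublets, mixed cells and the top cell of each gene.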

Additional observations from a re-analysis of the deposited data

Results flagged for a closer look

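The KO over WT ratio pointed in opposite directions in MHC-II-low and MHC-II-high macrophages for 3 named genes past 1.5-fold in both classes. The differences between the classes were not tested, and each class is 1 library per genotype. Iigp1 had a log2 ratio of 1.29 in MHC-II-low macrophages and -1.14 in MHC-II-high ones, where it had 60 UMIs in KO and 152 in WT. Rsad2 stood at 1.70 and -1.08, with 24 and 63 UMIs in the MHC-II-high cells of the KO and WT libraries. Spp1 stood at 0.77 and -0.88, with 21 and 48 UMIs in those cells. In the MHC-II-low class 1 KO member held 103 of 243 Iigp1 UMIs, 31 of 60 Rsad2 UMIs and 70 of 252 Spp1 UMIs. How these UMIs were spread over single MHC-II-high cells is not given here. The highest WT cell of that class had 3.085% of its UMIs on the interferon list, against a median of 0.324%.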

How the results depend on the processing

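No paired analysis was possible because each genotype has 1 library, and for the same reason no replicate could be left out. Counts of genes moved most: against 190 higher and 152 lower in KO, adding 1 CPM before the logarithm gave 318 and 297, adding 50 CPM gave 54 and 25, and there were 431 and 422 without a filter on genes and 56 and 32 with at least 200 UMIs. They were 583 and 496 with cells thinned to 2000 UMIs, 323 and 345 with the microglial share under 0.1%, and 444 and 418 in Lyve1-detected members only. Between classes, 48 genes higher and 27 lower became 13 and 16 on adding 50 CPM, and 25 were higher with a macrophage share of at least 0.2%. The share of members among filtered barcodes was 1.04% in KO and 0.931% in WT with the microglial share under 0.1%. It was 1.45% in KO with mixed cells left out of the members but kept among the filtered barcodes. Among border macrophages it was 57.6% in KO and 59.7% in WT with MHC class II under 0.25%. Among named genes past 1.5-fold, the direction turned for Adamts1 (0.094, microglial share under 0.1%), for Apoc4 (-0.65), Timp3 (-0.21) and Spp1 (-1.10) with the macrophage share at least 0.2%, and for Iigp1 (-0.16) and Cxcl10 (-1.74) in Lyve1-detected members; the cause was not tested. Of 78 named genes within 1.5-fold, 25 changed sign under at least 1 alternative, among them Bmp2 (-0.42 to 0.51) and Cd36 (-0.44 to 0.62), so no direction is read for these. All 315 list medians under alternatives moved by less than 0.32 (log2), yet 14 of 21 lists changed sign near 0, among them chemokines (-0.053 to 0.29), inflammatory cytokines (-0.25 to 0.16) and CD200 receptor signalling (-0.19 to 0.18). The interferon median stayed between 0.68 and 1.11, lowest with 50 CPM, where 20 genes were higher. Depth limits single genes, as the exact interval of a gene with 0 UMIs in WT members reaches 3.03 CPM.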

Other observations

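Il10, the gene of an anti-inflammatory cytokine, lay under the 50-UMI minimum and was chosen here after its values were seen. It had 39 UMIs in 12 KO members and 7 UMIs in 5 WT members, a ratio of 5.57 with an exact interval of 2.46 to 14.7 for counting error. The interval does not allow for that choice, nor for several UMIs lying in the same cell.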
